A study of Danio rerio with 2 samples.

Results

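The mitochondrial ribosomal protein genes were taken by name alone, as every gene whose symbol begins with MRPL or MRPS and goes on with a digit. This gave 73 of the 22328 genes with a value in the adult zebrafish ovary, 46 named for the large subunit (MRPL) and 27 for the small subunit (MRPS). Only 20336 of the gene IDs had a symbol, so the set may be incomplete. Sums and ratios of the subunits below cover the genes found. Each of the 73 symbols belonged to a single gene ID, and each gene had at least 1 FPKM in at least 1 library, so no member was lost to the filter on low values. FPKM, fragments per kilobase of transcript and per unit of mapped fragments, is a level scaled for transcript length and library size, so that levels of different genes can be set side by side. Symbols are written in capitals here, since the table of names mixes those of zebrafish with those of the human match.

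The ovary data came from 2 libraries of adult fish of the AB strain. The library labelled KO came from sox3-/- fish, which carry a CRISPR/Cas9 frame-shift deletion in *sox3*, and the library labelled WT came from sox3+/+ fish. According to the methods, RNA of 3 adults was used for each genotype, and the labels call each library a mix. Of the mutant lines, the one behind the library labelled KO is not given in the sources used here. With 1 library per genotype there is no replicate check, so no test was made. All counts below are counts by size of the ratio of the library labelled KO over the library labelled WT.

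The targeted gene, SOX3 (ENSDARG00000053569), had 2.16 FPKM in the library labelled KO and 1.18 FPKM in the library labelled WT. The higher level lay under the KO label, whereas the nonsense-mediated decay that the study proposes for the mutant transcripts would lower it. Both levels are low and come from 1 library each. The labels were not settled by this level, and each direction below is that of the labels. The study also assayed the *sox3* transcript by quantitative PCR and the Sox3 protein by Western blot in ovaries, with results not reported here. Markers of the oocyte were abundant, with a summed level of 6535 FPKM in the library labelled KO and 6935 FPKM in the library labelled WT over 12 genes. Markers of granulosa and theca cells summed to 60.6 FPKM (KO label) and 49.7 FPKM (WT label) over 10 genes, a higher sum under the KO label that came from CYP17A1 alone, at 48.96 FPKM (KO label) and 30.73 FPKM (WT label). The 6 of these genes that reached 1 FPKM had a median log2 ratio of -0.70. Of the 6 genes, 4 were at least 1.4-fold lower and 1 at least 1.4-fold higher. Over all genes that reached 1 FPKM, 17.5% were that much lower and 15.1% that much higher. The aromatase gene CYP19A1 had 1.12 FPKM (KO label) and 2.04 FPKM (WT label). FSHR and LHCGR, the gonadotropin receptors, were at or below 0.13 FPKM in both. Red blood cell markers summed to 25.4 FPKM in the library labelled KO and 14.7 FPKM in the library labelled WT. Most of each sum was HBAA1, the only one to reach 1 FPKM, at 23.05 FPKM (KO label) and 12.8 FPKM (WT label). Macrophage and granulocyte markers summed to 9.15 FPKM (KO label) and 6.21 FPKM (WT label). Of the 4 that reached 1 FPKM, MARCO and LYZ were at least 1.4-fold higher under the KO label. LCP1 was lower, at 0.81 FPKM (KO label) and 1.1 FPKM (WT label). Muscle markers summed to 4.22 FPKM (KO label) and 7.13 FPKM (WT label). Liver markers summed to 1.99 FPKM (KO label) and 2.41 FPKM (WT label). The muscle marker CKMB and TFA, the only liver marker to reach 1 FPKM, were higher under the KO label. The part of these cell types in the results below was not tested, nor was that of the mix of follicle stages in the ovaries. In a bulk library, fewer cells of a type and less RNA per cell cannot be told apart. Reads per gene were not in the table, so the depth behind a single value is unknown.

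Mitochondria carry their own ribosome, which translates the few proteins that mitochondrial DNA still encodes, all of them subunits of the respiratory chain or of ATP synthase. Its rRNAs are transcribed inside the organelle, whereas its proteins are encoded in the nucleus, made in the cytosol and imported, so that each subunit is assembled from parts of both genomes. Many of the proteins have a counterpart in the bacterial ribosome, and others are specific to mitochondria. The egg passes on the mitochondria of the embryo, and the growing oocyte builds up a very large store of them. In humans, variants of MRPS22 are a known cause of primary ovarian insufficiency.

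The members formed a set of moderately abundant transcripts. In the library labelled KO they ranged from 4.05 to 106.5 FPKM with a median of 34.0 FPKM, and in the library labelled WT from 4.13 to 115.41 FPKM with a median of 40.9 FPKM. In all, 57 members in the library labelled KO and 54 members in the library labelled WT lay between 20 and 60 FPKM. Together they made up 0.499% of all FPKM in the library labelled KO and 0.550% in the library labelled WT. The order of the genes was similar in both, with Spearman's rho of 0.88 over the 73 genes, which are not independent replicates and share their libraries.

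MRPL17, a large subunit protein with a bacterial counterpart, had the highest level of all members in both libraries, at 106.5 FPKM in the library labelled KO and 115.41 FPKM in the library labelled WT. MRPL12, which forms the flexible stalk that recruits translation factors and in human cells also binds the mitochondrial RNA polymerase, had 96.65 FPKM (KO label) and 96.84 FPKM (WT label). Its log2 ratio was the nearest to 0 of all members. Next by mean level was MRPL14, a protein of the face that meets the small subunit, with 69.25 FPKM in the library labelled KO and 110.65 FPKM in the library labelled WT. Next among large subunit genes came the mitochondria-specific MRPL54, with 62.12 FPKM (KO label) and 81.84 FPKM (WT label), and MRPL53, with 62.3 FPKM (KO label) and 73.72 FPKM (WT label).

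Among the MRPS genes, MRPS18A was highest, with 81.85 FPKM in the library labelled KO and 93.26 FPKM in the library labelled WT. It is 1 of 3 relatives of the bacterial protein S18, all expressed here. MRPS18B, which sits in the small subunit, had 62.98 FPKM in the library labelled KO and 74.91 FPKM in the library labelled WT. MRPS18C, which takes the place of the bacterial protein, had 37.41 FPKM (KO label) and 47.08 FPKM (WT label). All 3 were lower in the library labelled KO, by log2 differences of -0.19, -0.25 and -0.33 for A, B and C. In mammalian structures the MRPS18A protein belongs to the large subunit, and so does the product of MRPS30, which had 58.49 FPKM in the library labelled KO and 68.79 FPKM in the library labelled WT. MRPS28, the counterpart of bacterial S1, had 53.77 FPKM (KO label) and 74.75 FPKM (WT label), and MRPS33, specific to mitochondria, had 48.81 FPKM (KO label) and 57.59 FPKM (WT label).

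At the other end, MRPS25 was the least abundant member by a wide margin, at 4.05 FPKM in the library labelled KO and 4.13 FPKM in the library labelled WT. The next lowest by the mean of both libraries were MRPL58, a peptidyl-tRNA hydrolase built into the ribosome, at 13.2 FPKM (KO label) and 13.04 FPKM (WT label), and MRPL46, at 13.39 FPKM (KO label) and 13.96 FPKM (WT label). No member was at or near the smallest listed value of 0.01 FPKM.

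**Figure D1:**
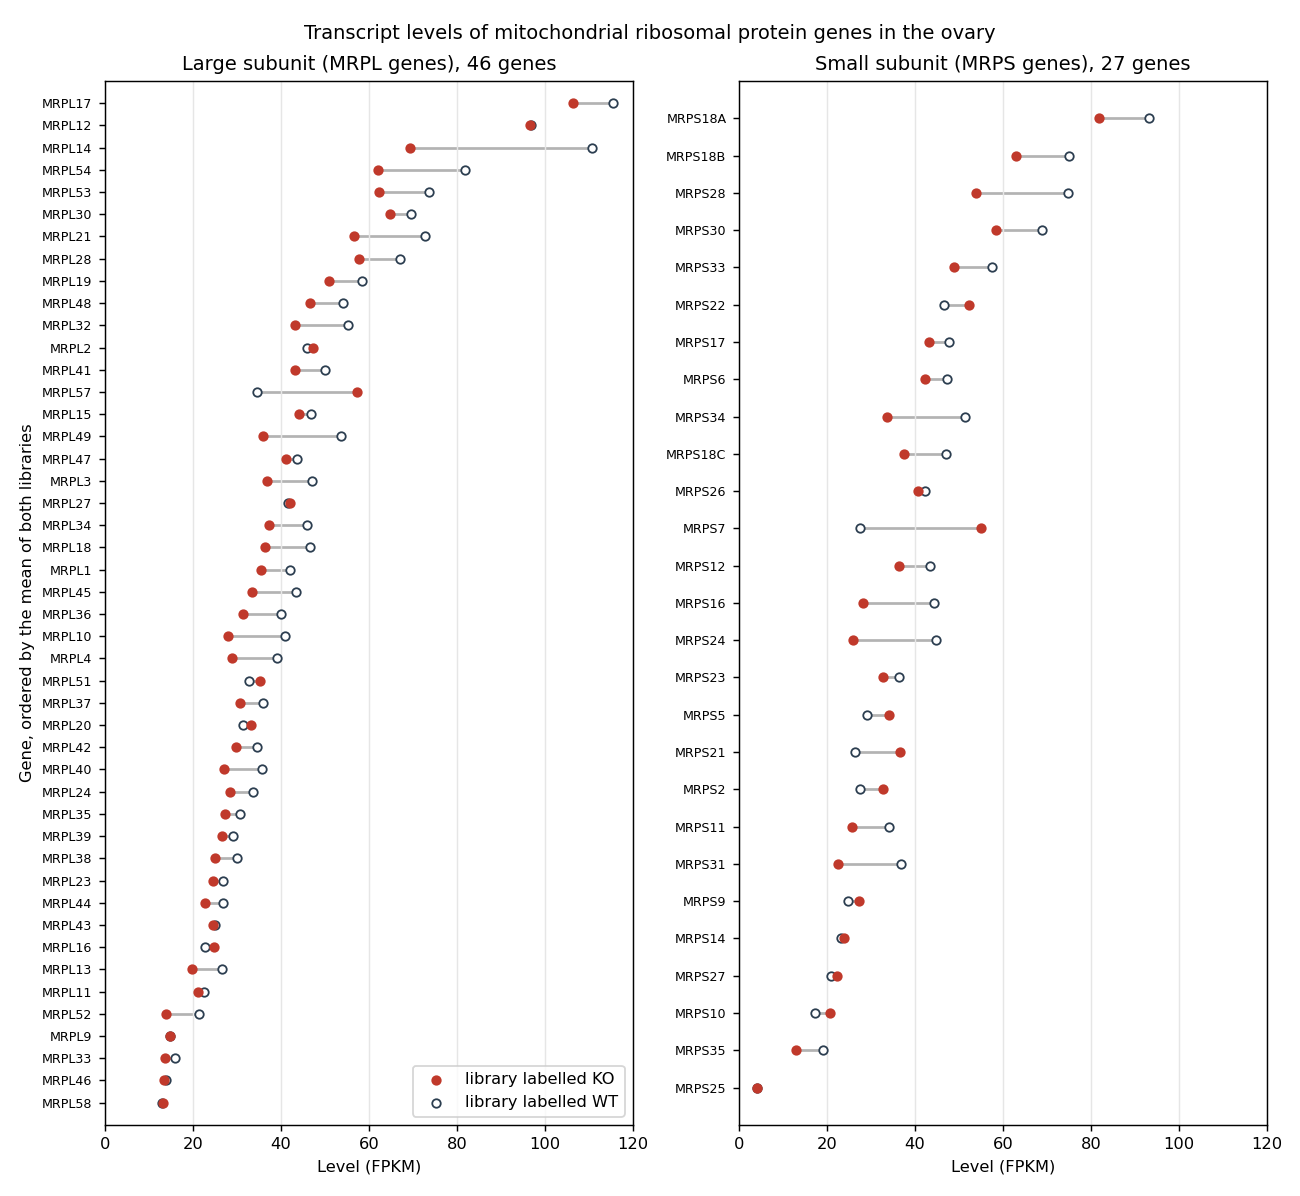
Levels in FPKM (x axis, linear) of the 46 MRPL genes (left panel) and the 27 MRPS genes (right panel), ordered by mean level, with filled red points for the library labelled KO and open points for the library labelled WT, 1 library each. The filled point lies left of the open one for 57 of the 73 genes, and the widest gap in the other direction is that of MRPS7, at 54.95 FPKM (KO label) and 27.43 FPKM (WT label).

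Most members were somewhat lower in the library labelled KO. A log2 ratio was computed after adding 0.1 FPKM to both values, and it was below 0 for 57 of the 73 members (78.1%), while it was below 0 for 52.2% of the 13455 genes that reached 1 FPKM in either library. The median log2 ratio was -0.21 over the members and -0.02 over all those genes. The summed level of the members was 2761 FPKM in the library labelled KO and 3152 FPKM in the library labelled WT, which made it 12.4% lower under the KO label. The sum over all listed genes was lower too, at 553683 FPKM (KO label) and 572613 FPKM (WT label). The central 50% of the members spanned log2 ratios from -0.35 to -0.03, and that of all genes from -0.31 to 0.26.

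Counted by size, 9 members (12.3%) were at least 1.4-fold lower and 2 members (2.74%) at least 1.4-fold higher in the library labelled KO. The fold threshold is that of the study, used here without its false discovery rate. Among all genes that reached 1 FPKM, 17.5% were at least 1.4-fold lower and 15.1% at least 1.4-fold higher, so that members past this fold were no more frequent than genes in general. Low genes scatter more, and all members but MRPS25 reached 10 FPKM. Against the 7695 genes at 10 FPKM or more, where 51.9% had a log2 ratio below 0, 56 of 72 members (77.8%) did. Of those 72 members, 9 (12.5%) were at least 1.4-fold lower, beside 9.4% of the genes at that level, and 2 (2.78%) at least 1.4-fold higher, beside 8.97%. At 2-fold or more in either direction, where 14.2% of all genes at 1 FPKM or more lay, there was no member with 0.1 FPKM added on the deposited scale. MRPS7 was at that limit, at 2.003-fold higher with nothing added, and passed it under both other scalings tried. Of the 73 members 62 lay within 1.4-fold and 21 within 1.1-fold, so most single ratios were small. The largest single difference in level was that of MRPL14, at -41.4 FPKM (KO label minus WT label).

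**Figure D2:**
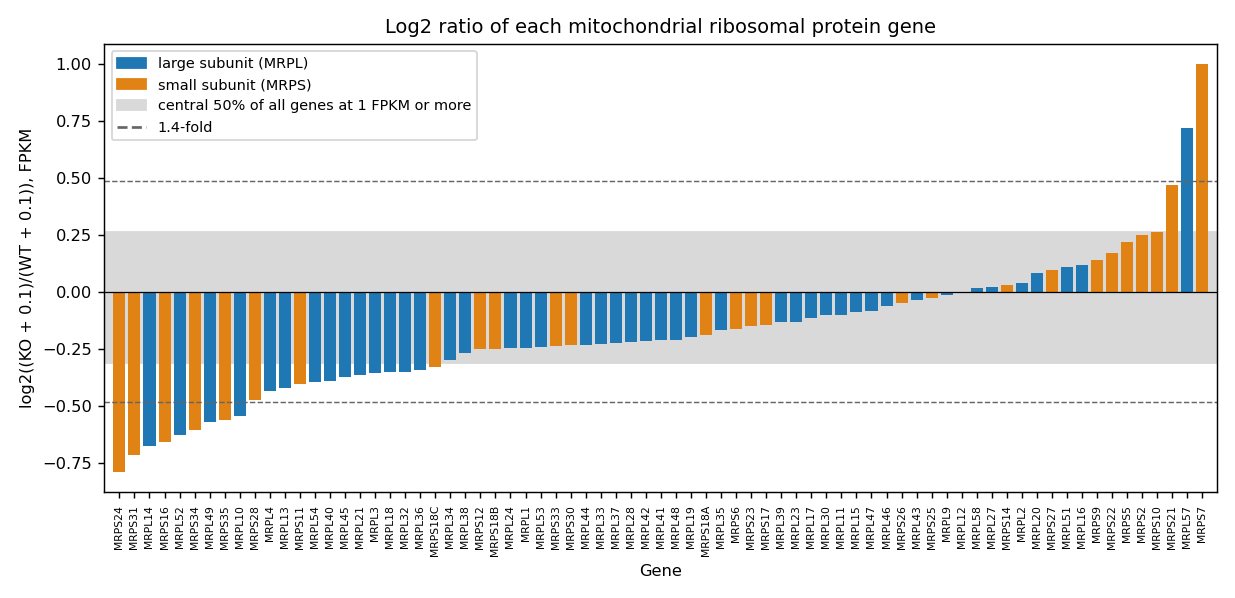
Log2 ratio of the library labelled KO over the library labelled WT (y axis, 0.1 FPKM added to both values) for each of the 73 members in rising order, blue for MRPL and orange for MRPS genes. Bars run from MRPS24 at -0.79 to MRPS7 at 1.00, dashed lines mark 1.4-fold, and the grey band marks the central 50% of all genes at 1 FPKM or more, from -0.31 to 0.26.

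The large and small subunit were compared in each library. The summed level was 1765 FPKM for the large subunit and 996 FPKM for the small subunit in the library labelled KO, and 2040 and 1111 FPKM in the library labelled WT. The large subunit thus had 1.77 times the sum of the small subunit in the library labelled KO and 1.84 times in the library labelled WT, which mostly follows from its larger number of genes. Per gene the subunits were close when taken by symbol. The median level of a large subunit gene was 34.4 FPKM in the library labelled KO and 40.4 FPKM in the library labelled WT, and that of a small subunit gene was 34.0 FPKM under the KO label and 42.2 FPKM under the WT label. With MRPS18A and MRPS30 counted in the large subunit, the medians were 35.3 FPKM (large) and 33.7 FPKM (small) under the KO label. Under the WT label they were 41.2 FPKM (large) and 36.9 FPKM (small), the reverse of the order by symbol.

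On the deposited scale both subunits were lower in sum in the library labelled KO, the large by 13.5% and the small by 10.4%. Of the 46 large subunit genes 39 (84.8%) had log2 ratios below 0, with a median of -0.22, and of the 27 small subunit genes 18 (66.7%) did, with a median of -0.16. The ratios were spread more widely among small subunit genes, with an SD over genes of 0.40, than among large subunit genes, with 0.23. Among the small subunit genes 5 (18.5%) were at least 1.4-fold lower and 1 (3.7%) at least 1.4-fold higher. Among the large subunit genes it was 4 (8.7%) and 1 (2.17%), beside 17.5% and 15.1% of all genes that reached 1 FPKM. Among all genes at 10 FPKM or more, a level that every member but MRPS25 reached, it was 9.4% and 8.97%. Whether the subunits differ was not tested, since genes of 1 pair of libraries are no replicates. Moving MRPS18A and MRPS30 to the large subunit left the medians at -0.22 for the large and -0.15 for the small subunit.

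Members with and without a bacterial counterpart were also set apart. The 28 large subunit genes with a counterpart had a median log2 ratio of -0.21, the narrowest spread (SD over genes 0.19) and 24 ratios below 0. The 20 mitochondria-specific genes of the large subunit, MRPS18A and MRPS30 among them, had a median of -0.22, with 17 below 0. In the small subunit, the 15 genes with a counterpart were split, with 8 below 0, a median of -0.15 and the widest spread (SD over genes 0.47). The 10 mitochondria-specific genes of the small subunit had a median of -0.19, with 8 below 0. At least 1.4-fold lower were 3 of these 10 genes and 2 genes in each of the other classes. At least 1.4-fold higher were 1 mitochondria-specific gene of the large subunit and 1 small subunit gene with a counterpart. Of all genes that reached 1 FPKM, 52.2% had ratios below 0, 17.5% were at least 1.4-fold lower and 15.1% at least 1.4-fold higher. Among all genes at 10 FPKM or more it was 51.9%, 9.4% and 8.97%.

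The member with the lowest ratio was MRPS24 (ENSDARG00000100116), the counterpart of bacterial S3 in the head of the small subunit. It had 25.91 FPKM in the library labelled KO and 44.88 FPKM in the library labelled WT, which is 1.73-fold lower. The mitochondria-specific MRPS31 (ENSDARG00000057855) followed, with 22.39 FPKM in the library labelled KO and 36.89 FPKM in the library labelled WT, 1.65-fold lower. Among the large subunit genes the lowest ratio was that of MRPL14 (ENSDARG00000068886), given above, at 1.60-fold lower. In human mitochondria its protein binds MALSU1, a factor that keeps the unfinished large subunit from joining the small one, and MALSU1 itself was at 42.52 FPKM in the library labelled KO and 44.61 FPKM in the library labelled WT.

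MRPS16, the counterpart of bacterial S16 and the first gene of this set that was tied to a human mitochondrial disease, had 28.1 FPKM in the library labelled KO and 44.39 FPKM in the library labelled WT. MRPL52, specific to mitochondria, had 13.79 FPKM (KO label) and 21.37 FPKM (WT label), and MRPS34, needed for a stable small subunit in mice, had 33.66 FPKM (KO label) and 51.35 FPKM (WT label). The mitochondria-specific MRPL49 had 36 FPKM in the library labelled KO and 53.61 FPKM in the library labelled WT. MRPS35, of the small subunit, had 12.93 FPKM (KO label) and 19.17 FPKM (WT label). MRPL10, which anchors the stalk, was the last member past 1.4-fold, at 28.0 FPKM in the library labelled KO and 40.93 FPKM in the library labelled WT, 1.46-fold lower. MRPL12, the stalk protein that it holds, stood at equal levels (log2 ratio 0.00), so the parts of the stalk had unlike ratios. MRPS28 lay just outside the threshold, at 1.39-fold lower.

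A further set of large subunit genes lay short of 1.4-fold lower. MRPL4, whose protein lines the exit tunnel for the new chain, had 28.97 FPKM in the library labelled KO and 39.15 FPKM in the library labelled WT. MRPL45, which faces the inner membrane at the end of that tunnel, had 33.44 FPKM (KO label) and 43.33 FPKM (WT label). MRPL3, near the site where peptide bonds are made, had 36.74 FPKM (KO label) and 47.07 FPKM (WT label). MRPL32, which must be trimmed by the m-AAA protease before it can be built in, had 43.22 FPKM in the library labelled KO and 55.16 FPKM in the library labelled WT, while AFG3L2, a subunit of that protease, was at 10.52 FPKM (KO label) and 10.51 FPKM (WT label). Small subunit genes lay in this range too, such as MRPS11, at 25.66 FPKM (KO label) and 34.02 FPKM (WT label). MRPS12, a small subunit protein of the decoding site, was nearer to equal, at 36.39 FPKM (KO label) and 43.36 FPKM (WT label).

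Only 2 members were at least 1.4-fold higher in the library labelled KO. MRPS7 (ENSDARG00000101622), the counterpart of bacterial S7, which organises the rRNA in the head of the small subunit, had 54.95 FPKM in the library labelled KO and 27.43 FPKM in the library labelled WT. Its log2 ratio of 1.00 was just under 2-fold with 0.1 FPKM added. By level it ranked 13 among the 73 members in the library labelled KO and 55 in the library labelled WT. MRPL57 (ENSDARG00000007285), a mitochondria-specific protein of the large subunit, had 57.2 FPKM in the library labelled KO and 34.64 FPKM in the library labelled WT, 1.65-fold higher.

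Next came MRPS21, the counterpart of bacterial S21, with 36.65 FPKM in the library labelled KO and 26.42 FPKM in the library labelled WT. At 1.39-fold higher it lay just short of the threshold as deposited and past it under both other scalings tried. MRPS10, MRPS2, MRPS5, MRPS22 and MRPS9 followed, all of the small subunit, with log2 ratios from 0.26 down to 0.14. Of these, MRPS22, the ovarian insufficiency gene named above, had 52.37 FPKM in the library labelled KO and 46.57 FPKM in the library labelled WT. The others have bacterial counterparts, with MRPS10 at 20.68 FPKM (KO label) and 17.24 FPKM (WT label), MRPS2 at 32.67 FPKM (KO label) and 27.46 FPKM (WT label), MRPS5 at 34.0 FPKM (KO label) and 29.15 FPKM (WT label) and MRPS9 at 27.28 FPKM (KO label) and 24.78 FPKM (WT label). Small subunit genes, 27 of the 73 members, therefore had 7 of the 8 highest ratios as well as the single lowest. The low end was mixed, with 4 large and 5 small subunit genes at least 1.4-fold lower. The highest ratios of large subunit genes other than MRPL57 were those of MRPL16, at 24.73 FPKM (KO label) and 22.81 FPKM (WT label), and MRPL51, at 35.32 FPKM (KO label) and 32.75 FPKM (WT label).

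Of the mitoribosomal proteins that carry other names, 5 were found, and none was past 1.4-fold. DAP3, the GTP-binding protein of the small subunit, had 40.72 FPKM in the library labelled KO and 37.94 FPKM in the library labelled WT. PTCD3, an RNA-binding protein at the place where mRNA enters, had 39.14 FPKM (KO label) and 38.17 FPKM (WT label). AURKAIP1 had 88.68 FPKM (KO label) and 104.29 FPKM (WT label), CHCHD1 had 20.97 FPKM (KO label) and 27.2 FPKM (WT label), and GADD45GIP1, of the large subunit, had 27.9 FPKM in the library labelled KO and 22.88 FPKM in the library labelled WT. Their median log2 ratio was 0.04, with 2 of 5 below 0. All 5 reached 10 FPKM, and 51.9% of all genes at that level had ratios below 0. Of those genes, 9.4% were at least 1.4-fold lower and 8.97% at least 1.4-fold higher. Beside such shares, the lack of a gene past 1.4-fold among 5 says little.

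Genes that assemble the mitoribosome or modify its rRNA went both ways. Of 32 genes, 19 (59.4%) had log2 ratios below 0, 5 (15.6%) were at least 1.4-fold lower and 1 (3.12%) at least 1.4-fold higher, with a median of -0.05. The share of at least 1.4-fold lower genes was near that of all genes that reached 1 FPKM, 17.5%. Among all genes at 10 FPKM or more, a level that most but not all of this list reached, it was 9.4%. The share of at least 1.4-fold higher genes was below the general 15.1%. Ratios below 0 were found for 52.2% of all those genes. Enzymes that act on the rRNA of the small subunit stood at both ends. TFB1M, which methylates a pair of adenines in it, had 2.36 FPKM in the library labelled KO and 6.41 FPKM in the library labelled WT, 2.72-fold lower. METTL15, which methylates a cytosine of the same rRNA, had 15.05 FPKM in the library labelled KO and 6.07 FPKM in the library labelled WT, 2.48-fold higher. NSUN4, an RNA methyltransferase, had 14.23 FPKM (KO label) and 25.14 FPKM (WT label), whereas its partner MTERF4 had 20.15 FPKM (KO label) and 14.72 FPKM (WT label). RPUSD4, which makes pseudouridine in the rRNA of the large subunit, had 14.67 FPKM in the library labelled KO and 24.78 FPKM in the library labelled WT.

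The 15 factors of mitochondrial translation had a median log2 ratio of -0.05. Of them 1 (6.67%) was at least 1.4-fold lower and 1 (6.67%) at least 1.4-fold higher. Over all genes that reached 1 FPKM these shares were 17.5% and 15.1%. The lower one was TACO1, known in humans as the translational activator of the cytochrome c oxidase subunit MT-CO1. It had 1.37 FPKM in the library labelled KO and 13.44 FPKM in the library labelled WT, 9.81-fold lower. The higher one was MTIF3, an initiation factor, with 6.22 FPKM in the library labelled KO and 2.72 FPKM in the library labelled WT. The most abundant factor, the elongation factor TUFM, was nearly equal at 63.81 FPKM (KO label) and 66.04 FPKM (WT label).

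Of 18 mitochondrial aminoacyl-tRNA synthetases and related amidotransferase subunits, which charge the tRNAs, 14 (77.8%) had log2 ratios below 0, 4 (22.2%) were at least 1.4-fold lower and none was at least 1.4-fold higher. Over all genes that reached 1 FPKM these shares were 52.2%, 17.5% and 15.1%, so the share at least 1.4-fold lower was near that one. Among all genes at 10 FPKM or more, a level that most but not all of this list reached, 9.4% were at least 1.4-fold lower. The median of the synthetases was -0.14. SARS2, for serine, had 9.59 FPKM in the library labelled KO and 25.82 FPKM in the library labelled WT, 2.69-fold lower. The other 3 past the threshold were PARS2, for proline, at 12.93 FPKM (KO label) and 22.88 FPKM (WT label), FARS2, for phenylalanine, at 2.98 FPKM (KO label) and 5.16 FPKM (WT label), and EARS2, for glutamate, at 5.55 FPKM (KO label) and 9.24 FPKM (WT label).

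The messages that this ribosome translates were lower by more than the transcripts for its own proteins were. The libraries were made from poly(A) RNA, and how evenly that step kept mitochondrial messages in each library was not tested. All 13 protein genes of mitochondrial DNA had log2 ratios below 0, ranging from -1.21 to -0.40 with a median of -0.78, and their summed level was 7452 FPKM in the library labelled KO and 13224 FPKM in the library labelled WT. MT-CO1 was the only one within 1.4-fold, at 1351.24 FPKM in the library labelled KO and 1786.91 FPKM in the library labelled WT. Among all genes that reached 1 FPKM, 52.2% had log2 ratios below 0. At least 1.4-fold lower were 17.5% of them, and 15.1% were at least 1.4-fold higher. Among all genes at 10 FPKM or more, a level that all 13 reached, it was 51.9%, 9.4% and 8.97%. The 13 genes share 1 pair of libraries and are no replicates of each other. The cytosolic ribosome offers a comparison of the same kind as the members. Of its 76 genes 69 (90.8%) had log2 ratios below 0, with a median of -0.16 and none past 1.4-fold in either direction. Its SD over genes was 0.13, less than the 0.30 over the mitochondrial members, at a median level of 235.1 FPKM in the library labelled KO and 278.9 FPKM in the library labelled WT. These sets differ in level, and the central 50% of ratios was wider over genes that reached 1 FPKM (-0.31 to 0.26) than over those that reached 10 FPKM (-0.21 to 0.20).

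**Figure D3:**
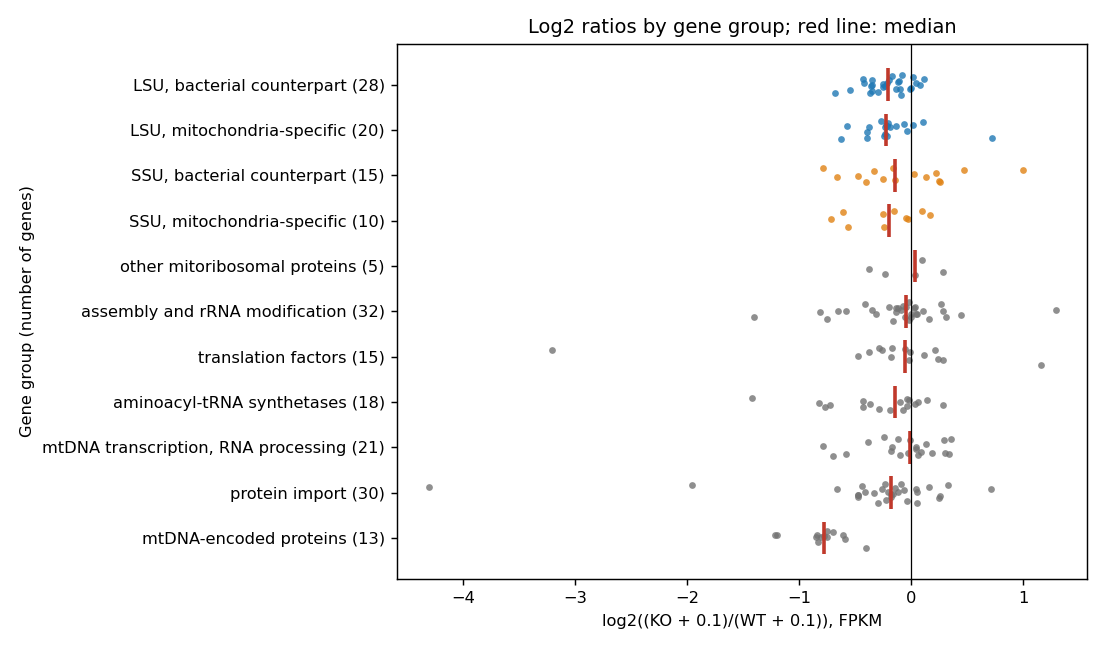
Log2 ratios of the library labelled KO over the library labelled WT (x axis, 0.1 FPKM added to both values) for single genes at 1 FPKM or more, by group, with the number of genes in brackets, points spread up and down for legibility only, and a red line at each median. The 4 groups of members have medians from -0.22 to -0.15, and the mtDNA-encoded group lies apart at -0.78. The point farthest left is TIMM17B, listed at 0.01 FPKM in the library labelled KO.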

How the data were processed

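Per the labels and the methods of the study, poly(A) RNA of adult ovaries was sequenced on a BGISEQ-500. Mapping by HISAT and Bowtie2 and computation of FPKM by RSEM were done by the authors, on build GRCz10 according to the submitters' processing notes, with tool versions not given in the sources used here. A deposited table holds FPKM for 22328 genes in 2 libraries, and reads per gene are unknown, so no counting interval was attached. RSEM divides reads shared by similar transcripts by estimate, so values of near-identical copies are uncertain.

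Symbols matched 20336 IDs. Members were found by symbol, and other lists by symbol in capitals, otherwise with a closing A or B. Cytosolic ribosomal genes are symbols of RPL or RPS with a digit, without RPS6K kinases and RPS19BP1. Log2 ratios used a pseudocount of 0.1 FPKM, which makes ratios of low genes smaller, and genes had to reach 1 FPKM in either library. Any member could be named. Values were given for those with the largest ratios, the most abundant, the least abundant and those with a special place, and for up to 4 genes per other list by ratio, with a few beside them for their function after their values were seen. Members and lists were chosen with earlier results of these data known.

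Alternatives were pseudocounts of 0.01 and 1 FPKM, trimmed mean and median of ratios scaling, filters, thresholds and subunit assignment. Functions were tested on simulated data. Tools were matplotlib 3.10.9, scipy 1.17.1, pandas 2.3.3, numpy 2.4.6 and Python 3.11.15. Neighbouring genes came from RefSeq (GRCz12tu), another assembly.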

Additional observations from a re-analysis of the deposited data

How the results depend on the processing

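The median log2 ratio of the members stayed between -0.21 and -0.16 under all alternatives run, that of the large subunit between -0.22 and -0.17, and that of the small subunit between -0.18 and -0.12. With trimmed mean scaling, which moved all ratios by 0.05, 53 of the 73 members had ratios below 0, and with median of ratios scaling 54. The count of members at least 1.4-fold lower under the KO label was 9 with the deposited scale, but 22 where the threshold was a level 25% higher under the WT label, and 0 at 2-fold. The share of all genes past the 25% threshold was not computed, so the count of 22 cannot be set against genes in general. The count of members at least 1.4-fold higher was 2, but 3 with either other scaling and 0 at 2-fold. The last count was 0 only on the deposited scale with 0.1 or 1 FPKM added, since MRPS7 had log2 ratios of 1.05 with trimmed mean scaling, 1.03 with median of ratios scaling and 1.00, just past 2-fold, with 0.01 FPKM added. The summed level of the large over the small subunit was 2.23 in the library labelled KO and 2.32 in the library labelled WT with subunits by structure. As a ratio of medians, with subunits by symbol, it was 1.01 under the KO label and 0.96 under the WT label. Symbols from RefSeq could not be used as an alternative, since that table pairs none of them with the gene IDs of the files. No paired analysis was possible because each genotype has 1 library. No replicate could be left out for the same reason, and the precision of single values is unknown.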

Other observations

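Proteins reach the mitochondrial ribosome through the import machinery, whose 30 genes had a median log2 ratio of -0.18. Of the 30 genes, 22 (73.3%) had ratios below 0, 3 were at least 1.4-fold lower and 1 (3.33%) at least 1.4-fold higher in the library labelled KO. Over all genes that reached 1 FPKM these shares were 52.2%, 17.5% and 15.1%. Genes past 1.4-fold were thus no more frequent in this list than among those genes. Of all genes at 10 FPKM or more, 9.4% were at least 1.4-fold lower and 8.97% at least 1.4-fold higher. TIMM8A, TIMM10 and TIMM10B lay just short of the threshold, each at 1.39-fold lower. HSPA9, the chaperone that pulls proteins into the matrix, had 146.37 FPKM in the library labelled KO and 89.05 FPKM in the library labelled WT. The small chaperone gene TIMM9 had 42.49 FPKM (KO label) and 67.09 FPKM (WT label). The channel genes TIMM23B, at 2.38 FPKM in the library labelled KO and 9.51 FPKM in the library labelled WT, and TIMM17B, listed at 0.01 FPKM (KO label) and 2.08 FPKM (WT label), stood far from their relatives TIMM23A, at 57.46 FPKM (KO label) and 64.31 FPKM (WT label), and TIMM17A, at 60.63 FPKM (KO label) and 76.18 FPKM (WT label). Such copies may share reads.

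The 21 genes of transcription, RNA processing and upkeep of mitochondrial DNA had a median log2 ratio of -0.01, with 11 below 0. Of the 21 genes, 3 (14.3%) were at least 1.4-fold lower and none at least 1.4-fold higher. Over all genes that reached 1 FPKM these shares were 17.5% and 15.1%, so the share at least 1.4-fold lower was near that one. Among all genes at 10 FPKM or more, a level that most but not all of this list reached, 9.4% were at least 1.4-fold lower. The polymerase POLRMT had 16.14 FPKM in the library labelled KO and 14.14 FPKM in the library labelled WT, and its partner TFAM had 14.99 FPKM (KO label) and 16.28 FPKM (WT label). The 3 genes at least 1.4-fold lower were POLG2 at 3.15 FPKM (KO label) and 5.52 FPKM (WT label), POLG at 8.05 FPKM (KO label) and 13.14 FPKM (WT label), and the helicase TWNK at 16.01 FPKM in the library labelled KO and 24.04 FPKM in the library labelled WT. SSBP1, which coats single-stranded mitochondrial DNA, had 26.4 FPKM (KO label) and 34.58 FPKM (WT label).

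In the RefSeq annotation 2 pairs of members are close neighbours. MRPS11 and MRPL46, with no coding gene between them, had log2 ratios of -0.41 and -0.06. MRPL24 and MRPL9, with PRCC between them, had -0.25 and -0.01. Over the 73 members, the log2 ratio and the mean level had Spearman's rho of -0.17, a description over genes of 1 pair of libraries. KGD4, once named MRPS36 and now known as a part of the 2-oxoglutarate dehydrogenase complex, is outside the rule and had 89.04 FPKM in the library labelled KO and 93.47 FPKM in the library labelled WT.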
